A study of Homo sapiens with 12 samples.

Results

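The genes described here are 10 core components of autophagy: SQSTM1, MAP1LC3B, GABARAPL1, WIPI1, ULK1, ATG5, ATG12, ATG16L1, BECN1 and NBR1. They were found by gene symbol in the 2 deposited gene count tables, where 10 of 60708 gene rows carry these symbols, and all 10 passed the filter on low counts in both tables. The cells were HCT116, a human colorectal carcinoma line with epithelial character, labelled wild type in all groups. One experiment compared cells given oligomycin A (OA), which blocks the ATP synthase of mitochondria, with cells given DMSO (OActrl), and the other compared cells given tunicamycin (TN), which blocks N-glycosylation of proteins, with a separate set of DMSO cells (TNctrl). Each group held 3 libraries, which the labels call biological replicates, after 24 h of treatment, 12 libraries in all. The labels give 5 µg/ml for both drugs, whereas the methods of the study give a different concentration for OA, so the dose of OA is uncertain. A single line was used, and only RNA was measured: neither autophagic flux nor protein was read out.

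Autophagy delivers cytoplasmic material to the lysosome inside a double-membrane vesicle, the autophagosome. The ULK1 kinase complex starts the process, the BECN1 lipid kinase complex marks the growing membrane with PI3P, WIPI proteins read that mark, and the ATG12-ATG5-ATG16L1 complex attaches ATG8 proteins such as MAP1LC3B and GABARAPL1 to the membrane. Receptors such as SQSTM1 (p62) and NBR1 bind ubiquitinated cargo and ATG8 proteins together and are themselves degraded with the cargo.

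Among the 10 genes, transcripts of 4 were higher with both drugs: the receptor SQSTM1, the ATG8 genes MAP1LC3B and GABARAPL1, and the PI3P reader WIPI1. NBR1 was called higher with TN. The genes of the conjugation complex, ATG5, ATG12 and ATG16L1, and BECN1, which encodes the scaffold of the lipid kinase complex, passed the test with neither drug. The promoter sequences of the 4 genes called with both drugs are shown first, because these genes were higher with each drug. Each is the 250 bases before a RefSeq start site (GRCh38.p14), written 5′ to 3′ on the strand of the gene. For SQSTM1, which has 3 start sites in the table, the window of the most downstream one is given. The windows lie at chr5:179820655-179820904 (plus strand) for SQSTM1, chr16:87392086-87392335 (plus strand) for MAP1LC3B, chr12:10212627-10212876 (plus strand) for GABARAPL1 and chr17:68457497-68457746 (minus strand) for WIPI1. Capitals mark a match to a searched motif.

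SQSTM1: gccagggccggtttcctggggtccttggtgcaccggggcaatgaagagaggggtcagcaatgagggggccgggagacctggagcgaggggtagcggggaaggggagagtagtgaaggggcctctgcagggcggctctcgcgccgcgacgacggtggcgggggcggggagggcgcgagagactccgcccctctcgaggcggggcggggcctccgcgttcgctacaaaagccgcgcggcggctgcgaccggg

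MAP1LC3B: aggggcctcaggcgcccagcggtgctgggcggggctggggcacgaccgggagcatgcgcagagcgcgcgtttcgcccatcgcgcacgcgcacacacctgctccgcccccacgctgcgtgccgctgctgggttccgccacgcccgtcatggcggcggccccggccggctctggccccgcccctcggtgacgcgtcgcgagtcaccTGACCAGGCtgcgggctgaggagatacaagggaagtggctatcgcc

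GABARAPL1: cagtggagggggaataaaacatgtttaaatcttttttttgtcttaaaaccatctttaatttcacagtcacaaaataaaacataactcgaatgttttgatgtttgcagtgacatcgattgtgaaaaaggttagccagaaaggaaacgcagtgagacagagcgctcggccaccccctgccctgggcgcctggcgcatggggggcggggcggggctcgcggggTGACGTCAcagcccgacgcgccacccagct

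WIPI1: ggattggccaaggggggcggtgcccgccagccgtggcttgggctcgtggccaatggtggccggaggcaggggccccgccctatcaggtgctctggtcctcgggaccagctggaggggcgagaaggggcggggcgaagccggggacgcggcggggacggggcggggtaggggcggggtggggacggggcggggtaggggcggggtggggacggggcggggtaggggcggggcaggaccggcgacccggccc

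The search covered both strands for 5 motifs of stress-responsive factors. They were the CARE motif TGATGNAA bound by ATF4-CHOP dimers, the E-box CACGTG, the antioxidant element TGACNNNGC, the UPR element TGACGTGG, and the CRE TGACGTCA, which was added after the windows had been read. All 10 genes had a window in the table, 14 windows in all, and 2 of the 14 held a match. The MAP1LC3B window holds TGACCAGGC, 46 to 38 bases before the start, a form of the antioxidant element, which occurs in 10.9% of the 35116 windows in the table. The GABARAPL1 window holds the CRE 30 to 23 bases before the start, a motif found in 1.65% of all windows. The CARE motif occurs in 3.14% of all windows, the E-box in 6.35% and the UPR element in 0.612%, and none of these letters occurs in the 14 windows of the 10 genes. The SQSTM1, MAP1LC3B and WIPI1 windows shown are rich in G and C, at 73.6%, 74.8% and 79.6%, and the GABARAPL1 window has 51.6%. These matches describe letters and say nothing of binding.

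The libraries held 9884124 to 24983573 counts each. Epithelial keratin genes were high in every library (KRT8 at 1626 to 2374 CPM, counts scaled to library size), whereas VIL1, a brush border marker, had at most 3 counts. The epithelial junction genes CDH1, CLDN4 and CLDN7, 3 of the 7 epithelial markers tested, were called higher with both drugs, at log2 changes of 1.59 to 1.81 with OA and 1.55 to 1.70 with TN, where 2.76% and 3.65% of all genes were called higher. The 10 markers of leukocytes, fibroblasts and endothelium summed, per total counts, to 1.96 to 3.13 CPM in OActrl and 6.17 to 10.2 in OA, without overlap, and to 2.88 to 5.57 in TNctrl and 2.52 to 4.26 in TN. With TMM library sizes COL1A1 stood at 1.72 ± 0.53 CPM in OActrl and 6.99 ± 4.75 in OA (log2 2.02, edgeR adjusted p = 0.0723, and 1.34 without OA replicate 2), while PTPRC had no more than 1 count in any library and CD3E 0. The part of these markers in the results below was not tested. Of 10 known target genes of the stress responses these drugs set off, 8 were called higher with OA and 10 with TN, against the same shares of all genes. Some libraries stood apart. The sum of 14 interferon-stimulated genes was 410 CPM in TNctrl replicate 1 and 319 in TN replicate 1, against 7488 and 7502 in the other TNctrl libraries and 2793 and 2794 in the other TN libraries. The small noncoding RNA RN7SL1 took 17.9% of counts in OA replicate 2, against 6.02% to 13.3% in the other 11. The values of the 10 genes and of the other autophagy genes called are given with and without OA replicate 2 and the TN experiment libraries numbered 1. These are bulk libraries, in which fewer cells of a type and less RNA per cell cannot be told apart.

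**Figure D1:**
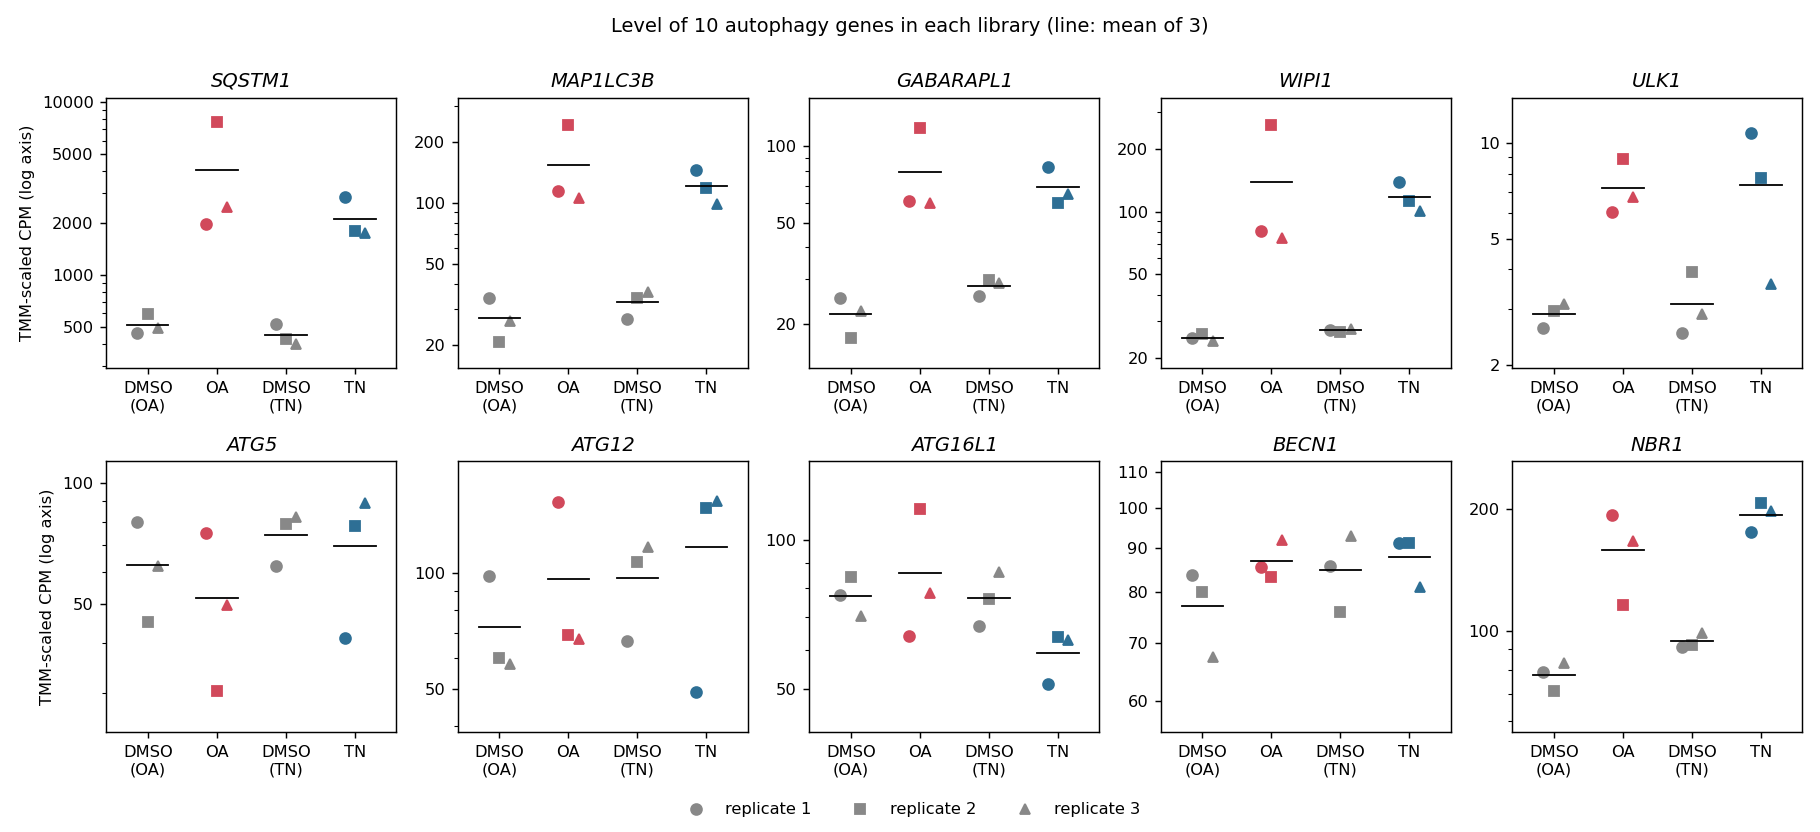
Level of each of the 10 genes in every library, as CPM with TMM library sizes on log axes that differ between panels; symbols give the replicate number and lines the mean of 3 libraries. SQSTM1, MAP1LC3B, GABARAPL1 and WIPI1 in OA and TN lie above all their DMSO libraries, with OA replicate 2 the highest for each, whereas treated and DMSO libraries of ATG5, ATG12 and BECN1 overlap.

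The first question was which of the 10 genes changed with OA. By edgeR (quasi-likelihood, p-values adjusted by Benjamini-Hochberg over 14681 genes), 4 of the 10 were called higher and 0 lower at an adjusted p under 0.05, where 2.76% of all genes tested were called higher and 1.72% lower. At an unadjusted p under 0.05 the counts were 6 and 0, against 13.0% and 10.3% of all genes, and in DESeq2 6 and 0, against 5.84% and 4.15%. In 6 of the 10 all OA libraries lay above all OActrl libraries, and in 0 below, against 16.3% and 15.5% of all genes. The median log2 change was 1.17 over the 10 genes and -0.02 over all genes tested. With TN, 5 of the 10 were called higher and 0 lower over 14432 genes, where 3.65% and 3.34% of all genes were called. The counts with TN were 6 and 0 at an unadjusted p under 0.05, against 12.2% and 12.1% of all genes, and 5 and 0 in DESeq2, against 5.56% and 5.56%. TN libraries lay wholly above TNctrl libraries in 5 of the 10 and wholly below in 1, against 15.9% and 16.8% of all genes, and the median log2 change was 1.14 over the 10 and -0.03 over all genes.

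These calls rest on few libraries. With any 1 of the 3 OActrl libraries left out, or OA replicate 3 left out, edgeR called 0 of the 10 genes with OA, while 6 of 10 still had an unadjusted p under 0.05 in each of these fits and 5, 3, 3 and 91 genes were called in all. Without OA replicate 1 or OA replicate 2, 5 were called higher, where 4.69% and 3.16% of all genes were. Over these 6 fits the log2 change ranged from 2.09 to 3.27 for SQSTM1 and from 2.04 to 2.75 for MAP1LC3B. For GABARAPL1 it ranged from 1.47 to 2.02 and for WIPI1 from 1.64 to 2.76. With the replicate number as a block in the OA fit, 6 of the 10 were called higher and 0 lower, where 11.7% of all genes were called higher and 2201 of 14681 lower. With TN, 5 of the 10 were called higher without TN replicate 1, where 7.26% of all genes were, and 3 or 4 without any 1 of the other 5 libraries, where 0.531% to 1.71% of all genes were. Without both TN experiment libraries numbered 1, which leaves the interferon-high libraries, 6 were called higher and 1 lower, where 20.3% and 22.6% of all genes were called.

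**Figure D2:**
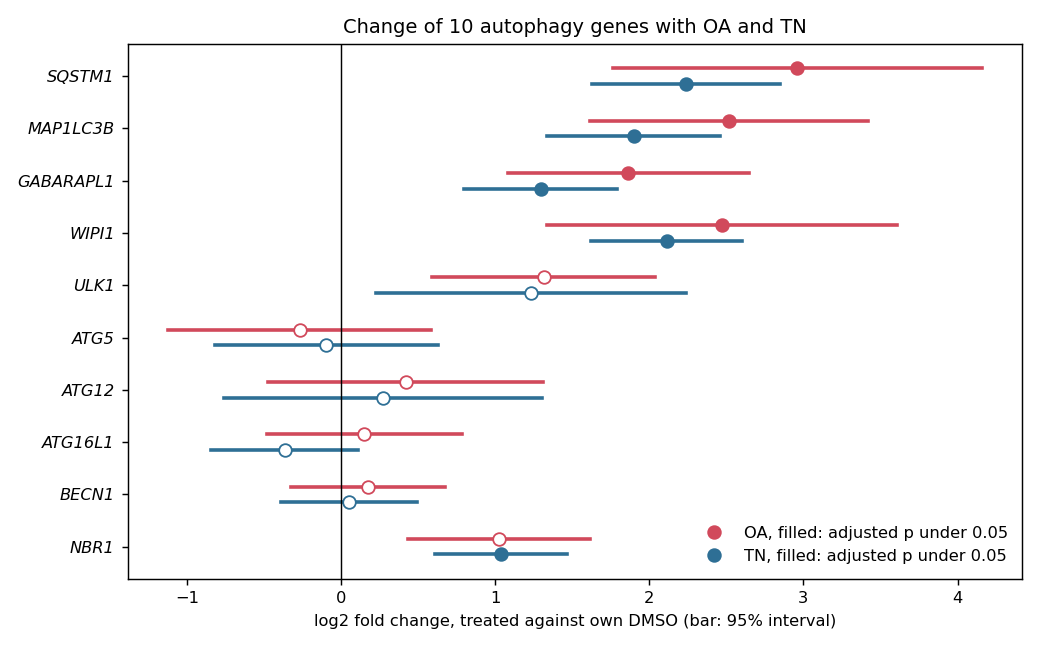
Log2 fold change of each gene with OA (red) and TN (blue) against its own DMSO libraries, with 95% intervals from edgeR's quasi-likelihood fit, 3 libraries a group; filled symbols have an adjusted p under 0.05. SQSTM1, MAP1LC3B, GABARAPL1 and WIPI1 lie at or above 1.29 with both drugs, and the intervals of ATG5, ATG12, ATG16L1 and BECN1 include 0.

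At the initiation step, ULK1 encodes the kinase that starts autophagosome formation. Its level was 2.62, 2.96 and 3.10 CPM in OActrl and 6.05, 8.88 and 6.74 CPM in OA. All OA libraries lay above all OActrl libraries, at 2.90 ± 0.25 against 7.22 ± 1.48 CPM (SD, n = 3). The log2 change was 1.31 (SE 0.32, 95% interval 0.59 to 2.04), and it missed the threshold (edgeR adjusted p = 0.0565), although it passed in 7 of the 11 other ways of processing the data, among them with the replicate number as a block (1.304, edgeR adjusted p = 0.0129). Without OA replicate 2 it was 1.13 (edgeR adjusted p = 0.0666). In TNctrl the level was 2.52, 3.93 and 2.89 CPM and in TN 10.7, 7.75 and 3.61 CPM. TN replicate 3 lay below the highest TNctrl library, so the groups overlapped, with a log2 change of 1.23 (SE 0.43, edgeR adjusted p = 0.13). TN replicate 1 was the highest, and without the libraries numbered 1 the change was 0.79 (SE 0.36, edgeR adjusted p = 0.0817). ULK1 is the least abundant of the 10 genes and its values rest on few counts.

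Of the 5 genes of the initiation kinase complex, 0 were called with OA (2 higher at an unadjusted p under 0.05, 2 in DESeq2) and 1 higher with TN (4 at an unadjusted p under 0.05, 1 in DESeq2), against 2.76% and 3.65% of all genes called higher, 13.0% and 12.2% at an unadjusted p, and 5.84% and 5.56% in DESeq2. With the replicate number as a block 3 were called higher with each drug, against 11.7% and 11.8% of all genes, namely ULK1, ATG13 and RB1CC1 with OA and ULK2, ATG13 and RB1CC1 with TN. RB1CC1 with TN is named after its values were seen. All 5 had a positive change with both drugs, with medians of 0.83 and 1.22, where 7158 of 14681 and 6945 of 14432 of all genes had a positive change. The gene called with TN was ATG13, the scaffold subunit, at 38.7 ± 7.3 CPM in TNctrl and 101 ± 32.6 in TN, a log2 change of 1.38 (SE 0.29, edgeR adjusted p = 0.0322) that was 1.31 without the libraries numbered 1. With OA its log2 change was 1.39 (SE 0.39, edgeR adjusted p = 0.0784), with no overlap of the groups, and 0.83 without OA replicate 2. ULK2, the close relative of ULK1, had a log2 change of 0.82 with TN (SE 0.24, edgeR adjusted p = 0.083), and of 0.86 without the libraries numbered 1 (edgeR adjusted p = 0.00249). With OA its log2 change was 0.21 (SE 0.39, edgeR adjusted p = 0.77), with overlapping groups, and 0.53 without OA replicate 2 (edgeR adjusted p = 0.30).

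At the nucleation step, BECN1 is the scaffold of the class III PI3-kinase complex. Its level was 83.7, 80.1 and 67.4 CPM in OActrl and 85.6, 83.3 and 92.0 CPM in OA, with overlapping groups. In TNctrl it was 85.8, 76.0 and 92.7 CPM and in TN 91.2, 91.1 and 81.2 CPM, again overlapping. The log2 change was 0.17 with OA (95% interval -0.33 to 0.67) and 0.05 with TN (-0.39 to 0.49), with edgeR adjusted p = 0.66 and 0.90. These intervals leave out a doubling in either direction. It was 0.20 without OA replicate 2 and 0.10 without the libraries numbered 1. Scaling to total counts turned the sign with both drugs, to -0.02 and -0.10.

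Over the 8 genes of the class III PI3-kinase complex the median log2 change was 0.04 with OA and 0.07 with TN, and edgeR called 0 with either drug (1 lower at an unadjusted p under 0.05 and 1 lower in DESeq2, in each comparison). With the replicate number as a block 1 was called lower with each drug. Of all genes, 10.3% and 12.1% were lower at an unadjusted p, 4.15% and 5.56% in DESeq2, and 2201 of 14681 and 15.3% with the block, so 1 of 8 lies near the shares at an unadjusted p and with the block. The lowest value of the list was that of PIK3R4, the regulatory subunit known as VPS15. It stood at 68.9 ± 6.2 CPM in OActrl and 32.2 ± 11.5 in OA, a log2 change of -1.10 (SE 0.32, edgeR adjusted p = 0.0892), and at 76.3 ± 4.0 in TNctrl and 38.0 ± 12.9 in TN, a log2 change of -1.004 (SE 0.29, edgeR adjusted p = 0.0802). In both comparisons all treated libraries lay below all DMSO libraries, and the log2 change was -0.83 without OA replicate 2 (edgeR adjusted p = 0.0597) and -0.71 without the libraries numbered 1 (edgeR adjusted p = 3.4e-06). It was the gene called lower with the block, at -1.16 with OA and -1.06 with TN (edgeR adjusted p = 0.006 and 0.00788).

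WIPI1, which binds PI3P on the forming autophagosome, had the tightest DMSO values of the genes called. Its level was 24.7, 26.0 and 24.0 CPM in OActrl and 80.8, 260 and 74.5 CPM in OA. OA replicate 2 stood more than 3 times above the other OA libraries, and the lowest OA library was still far above the highest OActrl library. The change was 5.55-fold (log2 2.47, SE 0.49, edgeR adjusted p = 0.0365). Without OA replicate 2 it was 1.64 on the log2 scale (edgeR adjusted p = 0.00914). In TNctrl the level was 27.1, 26.5 and 27.4 CPM and in TN 138, 112 and 100.4 CPM, a 4.33-fold change (log2 2.11, SE 0.21, edgeR adjusted p = 0.00399). This call held in all 6 fits with 1 library left out, at log2 changes of 2.02 to 2.17, and the change was 2.05 without the libraries numbered 1.

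Among the 10 genes of membrane supply and PI3P effectors, 2 were called higher with each drug and 0 lower (6 and 4 higher, 0 and 0 lower at an unadjusted p under 0.05, 4 and 3 higher in DESeq2, and 6 and 4 higher with the replicate block). Of all genes, 2.76% and 3.65% were called higher, 13.0% and 12.2% at an unadjusted p, 5.84% and 5.56% in DESeq2, and 11.7% and 11.8% with the block. The genes called were WIPI1 and WDR45, another protein of the same beta-propeller family. WDR45 went from 8.59 ± 0.44 CPM in OActrl to 41.0 ± 25.9 in OA (log2 2.25, SE 0.44, edgeR adjusted p = 0.0351). With TN it went from 8.01 ± 1.79 to 33.5 ± 12.2 CPM (log2 2.06, SE 0.33, edgeR adjusted p = 0.0134). Its log2 change was 1.598 without OA replicate 2 and 1.99 without the libraries numbered 1. ATG2A, which carries lipid to the growing membrane, had a log2 change of 1.15 with OA (SE 0.27, edgeR adjusted p = 0.0522). It was called with OA with the replicate block (1.14, edgeR adjusted p = 0.00575). With TN its log2 change was 0.22 (SE 0.23, edgeR adjusted p = 0.61), with overlapping groups.

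At the conjugation step, ATG12, a ubiquitin-like protein, is joined to ATG5, and the pair binds ATG16L1 to form the enzyme-like complex that attaches ATG8 proteins to lipid. For ATG5 the OActrl libraries stood at 79.9, 45.0 and 61.9 CPM and the OA libraries at 75.1, 30.3 and 49.6 CPM. The TNctrl libraries stood at 62.0, 79.0 and 82.1 CPM and the TN libraries at 41.2, 78.0 and 89.3 CPM. Within each experiment, treated and DMSO libraries of the same number lay on the same side, and the groups overlapped. The log2 change of ATG5 was -0.27 with OA (95% interval -1.12 to 0.58, edgeR adjusted p = 0.69) and -0.10 with TN (-0.82 to 0.63, edgeR adjusted p = 0.89), and its sign turned under scaling to ACTB, after a correction for GC content, without OA replicate 2 (0.021) and without the libraries numbered 1 (0.13).

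ATG12 was measured at 98.7, 60.1 and 58.2 CPM in OActrl and 153, 69.1 and 67.4 CPM in OA. It was at 66.5, 107 and 117 CPM in TNctrl and 49.0, 148 and 154 CPM in TN. The libraries numbered 1 were the highest in the OA experiment and the lowest in the TN experiment, in both arms. The log2 change was 0.42 with OA (SE 0.39, 95% interval -0.47 to 1.31, edgeR adjusted p = 0.55) and 0.27 with TN (SE 0.44, -0.76 to 1.301, edgeR adjusted p = 0.76). Without OA replicate 2 it was 0.64 (edgeR adjusted p = 0.37). Without the TN experiment libraries numbered 1, 2 against 2 libraries, the log2 change was 0.50 (SE 0.08, edgeR adjusted p = 2.3e-05).

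The spread of ATG5 and ATG12 moved with a property of the libraries. Across 13082 genes in the OA experiment and 13013 in the TN experiment, the deviation of a library from its group mean correlated with the GC content of the gene, at r from -0.71 to 0.70 over the 12 libraries. The exons of ATG12 and ATG5 have 36.1% and 38.5% GC, the lowest of the 10 genes, and those of ULK1 have the highest at 64.2%. In TN replicate 1, where GC-rich genes read high (r = 0.70), ATG12 lay 1.07 below its group mean on the log2 scale. In OA replicate 1, where they read low (r = -0.63), ATG12 lay 0.77 above it. With a GC offset fitted per library, ATG12 was called higher with OA (log2 0.90, SE 0.25, edgeR adjusted p = 0.0441), which made 7 of 10 genes called, where 8.51% of all genes were. With TN it was called when that offset was combined with the replicate number as a block (log2 0.45, SE 0.11, edgeR adjusted p = 0.0111).

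**Figure D3:**
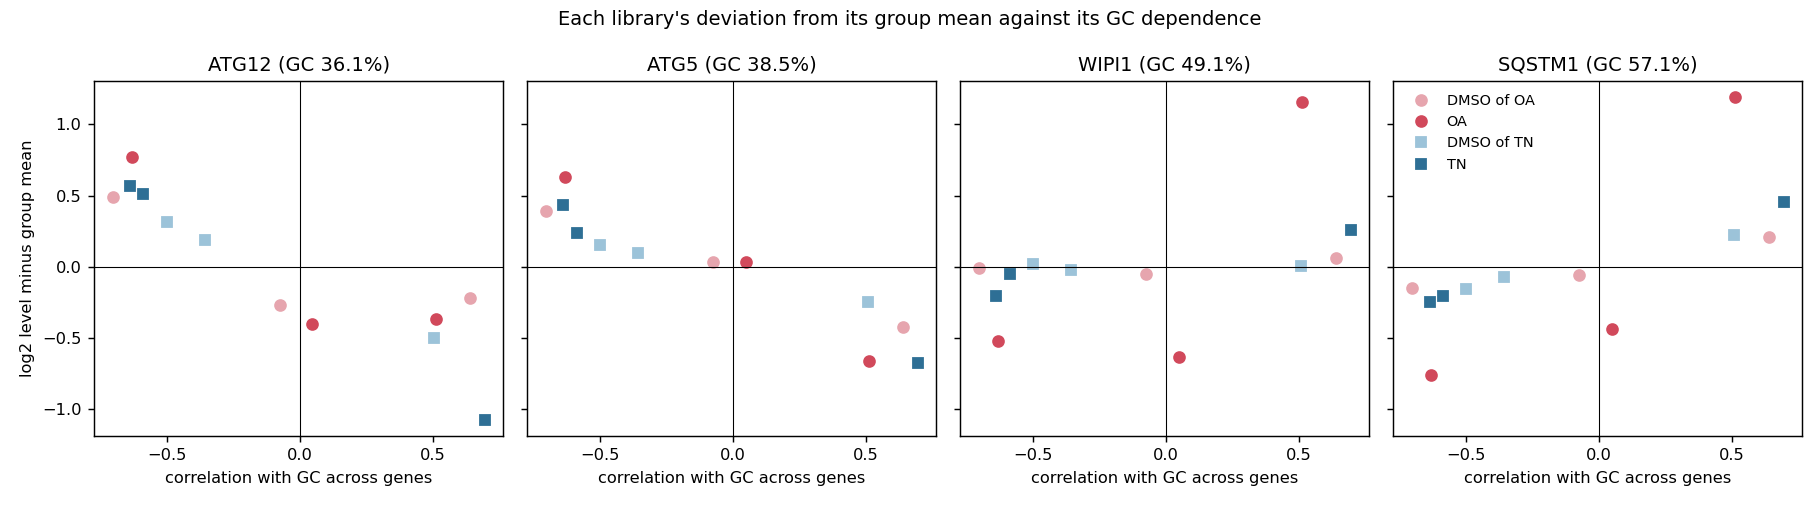
Deviation of each of the 12 libraries from its group mean, in log2 CPM, against the correlation of that library's deviations with GC content across genes, for 2 genes of low GC content (ATG12 and ATG5) and for WIPI1 and SQSTM1. ATG12 and ATG5 fall from left to right, with TN replicate 1 at -1.07 for ATG12, and for WIPI1 and SQSTM1 the highest point is OA replicate 2.

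ATG16L1 was at 77.3, 84.3 and 70.1 CPM in OActrl and 63.9, 116 and 78.1 CPM in OA, with overlapping groups. With TN the order differed: TNctrl stood at 67.1, 76.0 and 86.1 CPM and TN at 51.1, 63.8 and 62.9 CPM, so that all TN libraries lay below all TNctrl libraries. The log2 change was 0.15 with OA (95% interval -0.48 to 0.79, edgeR adjusted p = 0.77) and -0.37 with TN (-0.84 to 0.11, edgeR adjusted p = 0.32), and the OA value was -0.13 without OA replicate 2. It was called lower with TN in 2 of 12 alternatives, the GC offset with the block (-0.35, edgeR adjusted p = 0.0373) and the fit without libraries numbered 1 (-0.28, edgeR adjusted p = 0.0213).

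The 10 genes of the conjugation machinery, which include the 3 above, had a median log2 change of 0.04 with OA and 0.16 with TN. edgeR called 0 with either drug, 0 at an unadjusted p under 0.05 in either direction, and DESeq2 called 0. With the replicate number as a block, ATG4C, named after its values were seen, was called lower with OA (-0.97, edgeR adjusted p = 0.0194), and with TN ATG4D was called higher (0.64, edgeR adjusted p = 0.0287) and ATG3 lower (-0.56, edgeR adjusted p = 0.0335), where 2201 of 14681 genes were called lower with OA and 11.8% higher and 15.3% lower with TN. ATG4D, a protease that trims ATG8 proteins, had log2 changes of 0.57 with OA and 0.67 with TN (edgeR adjusted p = 0.34 and 0.21). ATG3, the enzyme that hands ATG8 proteins to the lipid, had changes of -0.47 and -0.53 (edgeR adjusted p = 0.34 and 0.24).

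Among the ATG8 genes, MAP1LC3B encodes LC3B, the ATG8 protein most used as an autophagosome marker. Its level was 34.0, 20.7 and 26.2 CPM in OActrl and 115, 244 and 105 CPM in OA. The OA libraries lay well above the OActrl libraries, and OA replicate 2 was more than double the other OA libraries. The change was 5.73-fold (log2 2.52, SE 0.39, edgeR adjusted p = 0.0219), and 2.04 on the log2 scale without OA replicate 2. In TNctrl it was 26.7, 34.1 and 36.4 CPM and in TN 146, 118 and 98.5 CPM, with no overlap. That was a 3.73-fold change (log2 1.90, SE 0.24, edgeR adjusted p = 0.00695), called in all 6 fits with 1 library left out, and 1.69 without the libraries numbered 1.

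GABARAPL1 encodes an ATG8 protein of the GABARAP branch. It stood at 25.3, 17.7 and 22.5 CPM in OActrl and 60.9, 118 and 59.6 CPM in OA, a 3.64-fold change (log2 1.86, SE 0.34, edgeR adjusted p = 0.0301). In TNctrl it was 25.8, 29.8 and 29.0 CPM and in TN 82.8, 59.9 and 64.8 CPM, a 2.45-fold change (log2 1.29, SE 0.21, edgeR adjusted p = 0.0153). Neither comparison had overlapping groups. The TN call was lost without TNctrl replicate 2 (edgeR adjusted p = 0.0833), TNctrl replicate 3 (0.0813) or TN replicate 3 (0.052), at log2 changes of 1.29 to 1.32, and it was 1.16 without the libraries numbered 1. With OA the change was 1.47 without OA replicate 2 (edgeR adjusted p = 0.0158).

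Of the 6 ATG8 genes 4 could be tested, since MAP1LC3A and MAP1LC3C were too low, and the 2 called with each drug were MAP1LC3B and GABARAPL1. Of all genes, 2.76% and 3.65% were called higher. At an unadjusted p under 0.05, 3 of the 4 were higher with each drug, against 13.0% and 12.2% of all genes. DESeq2 called 2 with each, against 5.84% and 5.56%, and the replicate block 2 with each, against 11.7% and 11.8%. In each of these tests 0 were lower. GABARAPL2 differed little in size: 35.6 ± 2.5 CPM in OActrl and 46.5 ± 2.8 in OA, and 41.4 ± 1.6 in TNctrl and 52.7 ± 3.6 in TN. Its log2 changes were 0.39 and 0.35, with no overlap in either comparison, and they did not pass (edgeR adjusted p = 0.34 and 0.30). Without OA replicate 2 the change with OA was 0.41 (edgeR adjusted p = 0.31). Without the libraries numbered 1, where 20.3% of all genes were called higher, GABARAPL2 was called with TN (0.42, edgeR adjusted p = 0.00374). GABARAP was counted at only 1.06 ± 0.51 CPM in OActrl and 1.17 ± 0.25 in TNctrl, with log2 changes of 1.47 and 1.497 that did not pass (edgeR adjusted p = 0.19 and 0.13), and of 0.74 without OA replicate 2 and 1.08 without the libraries numbered 1 (edgeR adjusted p = 0.47 and 0.12).

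Among the cargo receptors, SQSTM1 gathers ubiquitinated cargo and was the most abundant of the 10 genes. Its level was 464, 594 and 493 CPM in OActrl and 1975, 7634 and 2472 CPM in OA. OA replicate 2 lay more than 3 times above the other OA libraries, and every OA library was above every OActrl library. The means were 517 ± 68 and 4027 ± 3134 CPM, a 7.79-fold change (log2 2.96, SE 0.52, 95% interval 1.77 to 4.16, edgeR adjusted p = 0.0275). Without OA replicate 2 the log2 change was 2.09 (SE 0.20, edgeR adjusted p = 0.00497). In TNctrl the level was 522, 426 and 402 CPM and in TN 2838, 1794 and 1742 CPM, a 4.72-fold change (log2 2.24, SE 0.26, 95% interval 1.63 to 2.85, edgeR adjusted p = 0.0061). The TN call held in all 6 fits with 1 library left out, and the log2 change was 2.17 without the libraries numbered 1.

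NBR1 is a larger receptor that works with SQSTM1. It stood at 79.2, 71.2 and 83.2 CPM in OActrl and 193, 116 and 167 CPM in OA, and no groups overlapped. Unlike the 4 genes above, its lowest OA library was replicate 2. The log2 change with OA was 1.02 (SE 0.26, 95% interval 0.43 to 1.62, edgeR adjusted p = 0.0634). It passed in 7 of 11 alternatives, among them with the replicate number as a block (0.996, edgeR adjusted p = 0.00577), and without OA replicate 2 it was 1.21 (edgeR adjusted p = 0.0185). In TNctrl it was 91.3, 92.1 and 99.0 CPM and in TN 176, 207 and 197 CPM, a 2.05-fold change (log2 1.04, SE 0.18, edgeR adjusted p = 0.0192), and the log2 change was 1.15 without the libraries numbered 1. All 12 alternatives with TN gave a call, but of the 6 fits with 1 library left out only that without TN replicate 1 did, the others giving log2 changes of 0.98 to 1.06 with edgeR adjusted p = 0.0726 to 0.14.

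Of the 8 cargo receptor genes, 2 were called higher with OA and 2 with TN, and 0 lower (5 and 4 higher and 0 and 0 lower at an unadjusted p under 0.05, 4 and 4 higher in DESeq2, and 5 and 4 higher with the replicate block). The shares of all genes higher were 2.76% and 3.65%, 13.0% and 12.2% at an unadjusted p, 5.84% and 5.56% in DESeq2, and 11.7% and 11.8% with the block. The medians were 0.81 and 0.73. CALCOCO2 (NDP52), a receptor for bacteria and damaged mitochondria, went from 87.7 ± 6.4 CPM in OActrl to 180 ± 15 in OA (log2 1.04, SE 0.21, edgeR adjusted p = 0.0392), or 0.97 on the log2 scale without OA replicate 2, and had a log2 change of 0.73 with TN (edgeR adjusted p = 0.0619), or 0.70 without the libraries numbered 1 (edgeR adjusted p = 7.3e-08). OPTN, which also binds ubiquitin and ATG8 proteins, had log2 changes of 1.35 and 0.98 (edgeR adjusted p = 0.0572 and 0.0596), with no overlap in either comparison, and it was called with TN without the libraries numbered 1 (0.765, edgeR adjusted p = 6.6e-06). With the replicate block OPTN was called with both drugs (1.31 and 1.01, edgeR adjusted p = 0.00857 and 0.0117). CALCOCO2 was called with TN with that block (0.74, edgeR adjusted p = 0.00833).

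**Figure D4:**
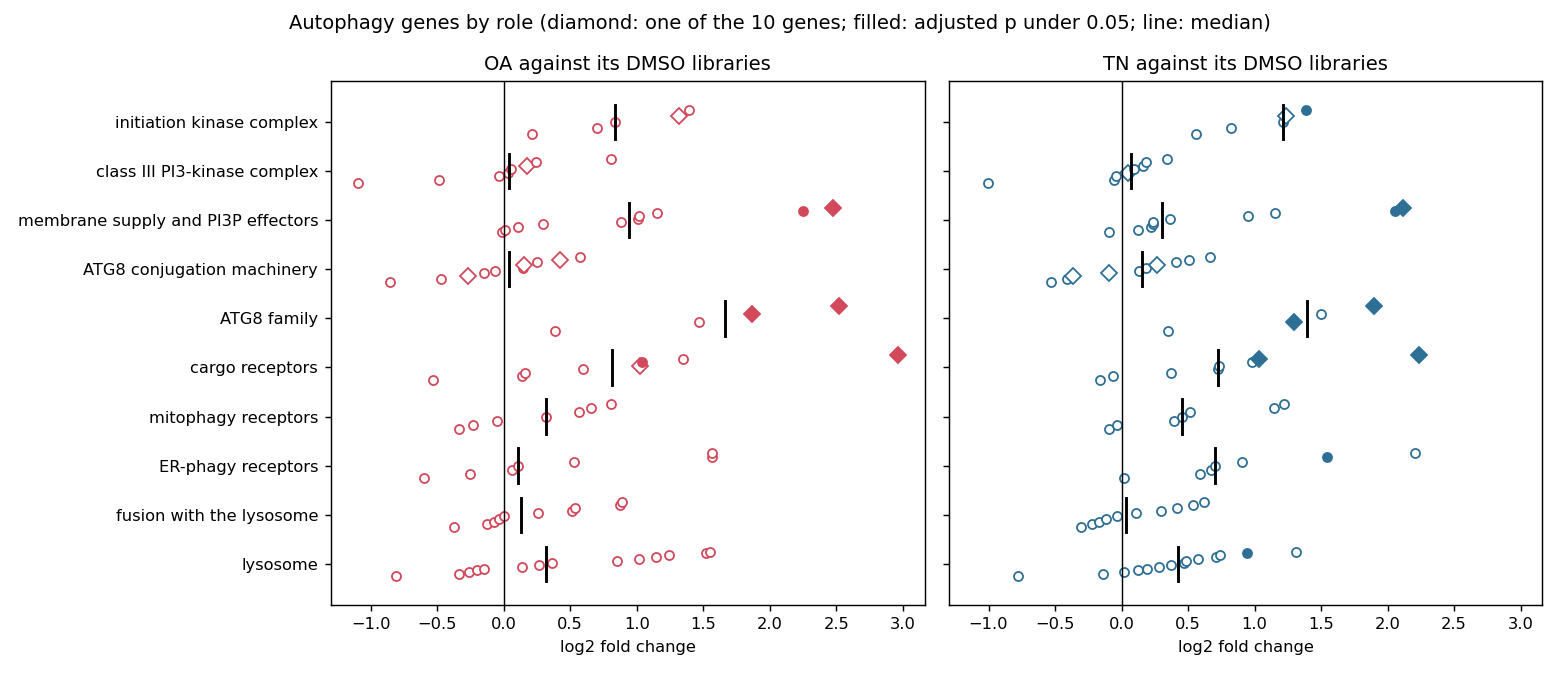
Log2 fold change of every tested gene of 10 autophagy role lists with OA (left) and TN (right); diamonds are the 10 genes, filled symbols have an edgeR adjusted p under 0.05, and vertical lines are medians. The ATG8 family has the highest medians, 1.67 and 1.40, over only 4 tested genes. These include GABARAP, counted at 1.06 CPM in OActrl and 1.17 in TNctrl. The PI3-kinase complex and conjugation machinery lie near 0.

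The 10 role lists hold 86 genes, 76 of them beyond the 10 described, of which 73 could be tested. Among the 73, 2 were called higher and 0 lower with OA, against 2.76% and 1.72% of all genes, with 20 higher and 2 lower at an unadjusted p under 0.05, against 13.0% and 10.3%, and 10 and 1 in DESeq2, against 5.84% and 4.15%. With TN, 4 were called higher and 0 lower, against 3.65% and 3.34%, with 21 and 2 at an unadjusted p under 0.05, against 12.2% and 12.1%, and 11 and 1 in DESeq2, against 5.56% and 5.56%. With the replicate number as a block in the TN fit, where same-numbered libraries deviated together, 23 were higher and 3 lower, against 11.8% and 15.3% of all genes. A positive change was found in 49 of 73 with OA and 56 of 73 with TN, against 7158 of 14681 and 6945 of 14432 of all genes. The medians were 0.25 and 0.37, against -0.02 and -0.03 over all genes. The 2 of 73 called higher with OA lie near the share of all genes, whereas the counts higher at an unadjusted p and in DESeq2 are larger shares than those of all genes with both drugs.

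The ER-phagy and lysosome lists held 2 of the other calls, both with TN. Of 7 ER-phagy genes, 0 were called higher with OA and 1 with TN, and of 14 lysosome genes 0 and 1. The shares of all genes were 2.76% and 3.65%. At an unadjusted p under 0.05, 2 and 4 ER-phagy genes were higher, and 5 and 4 lysosome genes higher and 1 and 1 lower. DESeq2 called 1 and 2, and 3 and 2, higher. With the block 2 and 4, and 5 and 6, were higher and 0 and 0, and 1 and 1, lower. Of all genes, 10.3% and 12.1% were lower at an unadjusted p and 15% and 15.3% with the block. CALCOCO1, a receptor for the endoplasmic reticulum and the Golgi apparatus, went from 12.2 ± 3.2 to 35.7 ± 5.9 CPM with TN (log2 1.54, SE 0.28, edgeR adjusted p = 0.0206) and had a log2 change of 1.57 with OA (edgeR adjusted p = 0.0563), or 1.07 without OA replicate 2 (edgeR adjusted p = 0.04996). CTSL, a lysosomal protease, went from 61.2 ± 2.6 to 118 ± 10 CPM with TN (log2 0.94, SE 0.19, edgeR adjusted p = 0.0272). Without the libraries numbered 1 these TN changes were 1.602 and 0.91. CCPG1, a receptor of the endoplasmic reticulum, had the highest change of its list with TN, from 2.44 ± 1.02 to 11.2 ± 6.3 CPM (log2 2.21, SE 0.57), and did not pass (edgeR adjusted p = 0.0615). With the replicate number as a block CCPG1 was called with TN (2.12, edgeR adjusted p = 0.00124). CALCOCO1, CTSL and CCPG1 were called with OA in that way (1.47, 1.31 and 1.81, edgeR adjusted p = 0.00284, 0.00746 and 0.0299). In the reported fit CTSL had a log2 change of 1.52 with OA (edgeR adjusted p = 0.0995), with no overlap of the groups. CCPG1 had 1.56 with OA (edgeR adjusted p = 0.22), with overlapping groups. Without OA replicate 2 these OA changes were 0.76 for CTSL and 1.66 for CCPG1 (edgeR adjusted p = 0.0996 and 0.22). The mitophagy genes PINK1 and BNIP3L had log2 changes of 1.22 and 1.15 with TN (edgeR adjusted p = 0.0615 and 0.0672). Without the libraries numbered 1, where 20.3% of all genes were called higher, CCPG1, PINK1 and BNIP3L were called, at 2.35, 1.19 and 1.39 (edgeR adjusted p = 2.5e-08, 2.4e-09 and 6.2e-12). Of 7 mitophagy genes tested, edgeR called 0 with either drug (2 and 3 higher, 0 and 0 lower at an unadjusted p under 0.05, and 0 and 2 higher in DESeq2). With the replicate number as a block 3 were called higher with OA and 2 with TN, and 0 lower, against 11.7% and 11.8% of all genes, among them PINK1 and BNIP3L with both drugs, BNIP3L with OA being named after its values were seen. Of all genes, 13.0% and 12.2% were higher at an unadjusted p and 5.84% and 5.56% in DESeq2. The 10 genes of fusion with the lysosome had medians of 0.13 and 0.04 and 0 calls (1 and 1 higher at an unadjusted p under 0.05, 0 and 0 in DESeq2, 1 and 2 higher with the block), against 13.0% and 12.2% of all genes at an unadjusted p and 11.7% and 11.8% with the block.

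Among 10 transcription regulators known to act on autophagy genes, 4 were called higher with OA and 3 with TN, and 0 lower, against 2.76% and 3.65% of all genes called higher. At an unadjusted p under 0.05, 4 were higher and 1 lower with each drug, against 13.0% and 10.3% of all genes with OA and 12.2% and 12.1% with TN, so that the 1 lower lies near the share of all genes. DESeq2 called 4 higher and 0 lower with each, against 5.84% and 5.56% of all genes higher. DDIT3 (CHOP) had log2 changes of 5.23 and 4.33 (edgeR adjusted p = 0.01 and 0.0024), CEBPB of 2.21 and 1.51 (edgeR adjusted p = 0.025 and 0.0206) and ATF4 of 1.38 and 1.46 (edgeR adjusted p = 0.028 and 0.00906). Without OA replicate 2 the OA changes were 4.53, 1.74 and 1.24, and without the TN experiment libraries numbered 1 the TN changes were 4.01, 1.22 and 1.43. TFE3, a regulator of lysosomal genes that is named after its values were seen, went from 5.76 ± 1.00 to 28.0 ± 16.1 CPM with OA (log2 2.28, edgeR adjusted p = 0.0318), and its log2 change was 1.69 without OA replicate 2 (edgeR adjusted p = 0.0176). With TN its log2 change was 1.35 and did not pass (edgeR adjusted p = 0.073), and it was 0.84 without the libraries numbered 1 (edgeR adjusted p = 0.0048). With the replicate number as a block TFE3 was called with TN (1.27, edgeR adjusted p = 0.024), where 11.8% of all genes were called higher. Its relative TFEB, named in the same way, had log2 changes of -0.94 and -0.86 (edgeR adjusted p = 0.14 and 0.12), with no overlap of the groups in either comparison, and of -0.79 without OA replicate 2 and -0.89 without the libraries numbered 1 (edgeR adjusted p = 0.19 and 0.0325).

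The next question was whether the 2 drugs differed in their effect on these genes. The difference of the log2 changes, OA minus TN, was tested in 1 edgeR fit of all 12 libraries. It was 0.62 for SQSTM1 (SE 0.55, 95% interval -0.58 to 1.82), 0.53 for MAP1LC3B (-0.36 to 1.43), 0.49 for GABARAPL1 (-0.28 to 1.25) and 0.25 for WIPI1 (-0.86 to 1.37). For NBR1, called with TN alone, the difference was -0.07 (-0.79 to 0.64), and for ULK1 0.01 (-1.04 to 1.07). The others were -0.23 for ATG5, 0.07 for ATG12, 0.41 for ATG16L1 and 0.05 for BECN1. edgeR called 0 of the 10 (0 at an unadjusted p under 0.05, 0 in DESeq2), and every edgeR adjusted p was 1.00 when rounded. Over all 15429 genes 0 passed, and 2.26% had an unadjusted p under 0.05. The intervals do not exclude a 2-fold larger effect of OA for SQSTM1, MAP1LC3B, GABARAPL1, WIPI1, ULK1, ATG12 (upper limit 1.54) and ATG16L1 (1.11), nor a 2-fold larger effect of TN for ATG5 (lower limit -1.44), ATG12 (-1.39) and ULK1 (-1.04). Without OA replicate 2 the sign turned for SQSTM1 (-0.15) and WIPI1 (-0.49).

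Levels between genes were compared as CPM per kilobase of exon, with the length of the union of annotated exons. In OActrl the order of the mean levels was SQSTM1 (68.6 ± 9.0), ATG16L1 (12.8 ± 1.2), BECN1 (12.02 ± 1.34), ATG5 (11.02 ± 3.08), NBR1 (9.26 ± 0.73), ATG12 (8.15 ± 2.58), WIPI1 (7.32 ± 0.30), GABARAPL1 (5.38 ± 0.95), MAP1LC3B (5.36 ± 1.33) and ULK1 (0.38 ± 0.03), each as CPM per kilobase (SD, n = 3). Only SQSTM1 and ULK1 stood clear of their neighbours and the others formed a series of overlapping ranges, except that the lowest WIPI1 library lay above the highest GABARAPL1 library. In TNctrl the means were 59.7 ± 8.5 for SQSTM1, 6.43 to 13.2 for 8 genes and 0.41 ± 0.10 for ULK1, with WIPI1 (7.94), GABARAPL1 (6.96) and MAP1LC3B (6.43) again the lowest of the 8. In OA the order was SQSTM1 at 534 ± 416, WIPI1 at 40.6 ± 30.9, MAP1LC3B at 30.7 ± 15.3, GABARAPL1 at 19.6 ± 8.2 and NBR1 at 18.8 ± 4.7 CPM per kilobase. They were followed by ATG16L1, BECN1, ATG12 and ATG5 at 9.14 to 14.2 and ULK1 at 0.95 ± 0.19. In TN it was SQSTM1 at 282 ± 82, WIPI1 at 34.4 ± 5.7, MAP1LC3B at 24.0 ± 4.7, NBR1 at 23.0 ± 1.9 and GABARAPL1 at 17.1 ± 3.0 CPM per kilobase. BECN1, ATG12, ATG5 and ATG16L1 followed at 9.80 to 13.7 and ULK1 at 0.97 ± 0.47. By mean level, WIPI1 and the 2 ATG8 genes thus ranked below the conjugation genes in DMSO and above them with both drugs. The lengths count every annotated exon, and the levels were not corrected for GC content. How far the order between genes depends on either was not tested. In OA all neighbouring ranges after SQSTM1 and before ULK1 overlapped, whereas in TN the libraries of WIPI1 lay above those of MAP1LC3B, those of NBR1 above those of GABARAPL1, and those of GABARAPL1 above those of BECN1.

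Over the 12 libraries, each taken against the mean of its own DMSO libraries, Pearson's r of log2 CPM was 0.99 between MAP1LC3B and GABARAPL1, 0.99 between SQSTM1 and WIPI1, and 0.97 for each of the other 4 pairs. These points share the contrast between treated and DMSO libraries, and OA replicate 2 lies far out for all 4 genes. In the 6 DMSO libraries alone, the deviations from the group mean had the same sign in 5 libraries for SQSTM1 and WIPI1 and in 5 for MAP1LC3B and GABARAPL1. They had the same sign in 0 libraries for SQSTM1 and GABARAPL1, in 1 for SQSTM1 and MAP1LC3B, in 1 for GABARAPL1 and WIPI1 and in 2 for MAP1LC3B and WIPI1. In OActrl, SQSTM1 deviated from its group mean by -0.15, 0.21 and -0.059 on the log2 scale and GABARAPL1 by 0.22, -0.28 and 0.060, and in TNctrl SQSTM1 deviated by 0.22, -0.070 and -0.15 and GABARAPL1 by -0.12, 0.080 and 0.043. ATG5 followed ATG12 (r = 0.73) and not the 4 genes (r from -0.57 to -0.40). Among 14071 genes the most alike to SQSTM1 were PSAP (r = 0.998), NIT1 (0.997) and GOT1 (0.9965). The genes most alike to MAP1LC3B were GABARAPL1 (0.99), MIR3929 (0.99) and LURAP1L (0.99). For GABARAPL1 they were MAP1LC3B, UGDH-AS1 (0.99) and BTG1 (0.99), for WIPI1 LAMB3, NIT1 and NFE2L1 (all 0.99), and for NBR1 PSAT1 (0.98), TCP11L2 (0.98) and CSTA (0.97).

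**Figure D5:**
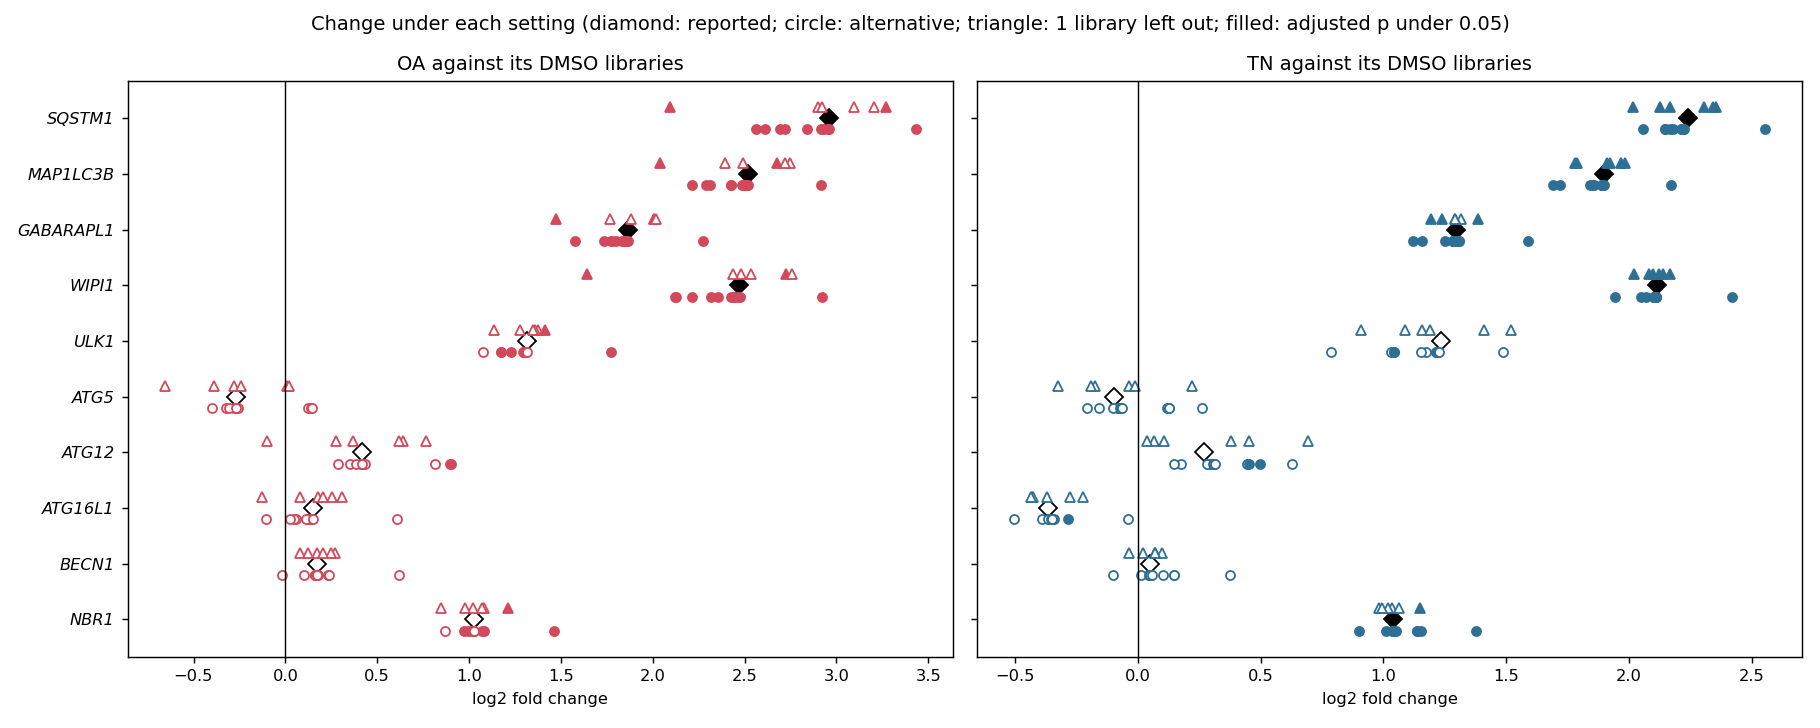
Log2 fold change of each gene under the reported fit (black diamond), each alternative way of processing (circles) and each fit with 1 library left out (triangles), for OA (left) and TN (right); filled symbols have an adjusted p under 0.05. The circles of SQSTM1, MAP1LC3B, GABARAPL1 and WIPI1 are filled in all 11 OA and all 12 TN alternatives, and 4 of 6 triangles are open for each with OA.

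The counts of some of these genes could include reads of other transcripts. Exons of SQSTM1, MAP1LC3B, GABARAPL1, WIPI1, ATG12, BECN1 and NBR1 overlap exons of genes on the opposite strand. The library kit keeps strand, but which strand setting was counted is not stated in the sources used here. MRNIP shares 1582 exonic bases with SQSTM1 and held 2622 counts over the 12 libraries against 249825 for SQSTM1. AP3S1 shares 185 bases with ATG12 and held 35670 counts against 16508 for ATG12. Near copies had few counts: MAP1LC3B2 had 38 in all libraries, ATG12P1 23 and BECN2 5, while SQSTM1P1, GABARAPL3 and MAP1LC3BP1 had 0. In the GRCh38 annotation, SQSTM1 spans positions 179806398 to 179838078 of chromosome 5, MAP1LC3B 87383953 to 87404779 of chromosome 16, GABARAPL1 10212458 to 10223128 of chromosome 12, WIPI1 68420948 to 68457513 of chromosome 17 and NBR1 43170481 to 43211689 of chromosome 17. The remaining genes are ULK1 at 131894622 to 131923150 of chromosome 12, ATG5 at 106045423 to 106325791 of chromosome 6, ATG12 at 115828200 to 115841837 of chromosome 5, ATG16L1 at 233210051 to 233295674 of chromosome 2 and BECN1 at 42810134 to 42833350 of chromosome 17.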

How the data were processed

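RNA of 12 HCT116 cultures was made into stranded total RNA libraries per the labels. The authors aligned reads with STAR to hg38 and deposited gene-level counts (Gencode 32), not normalized, in 1 table per drug. Their fold change and p-value tables, from DESeq2, were not used. edgeR 4.0.16 (R 4.3.3) was run on the deposited counts of each table: filterByExpr, TMM, quasi-likelihood test, treated against DMSO, two-sided, Benjamini-Hochberg adjustment over all genes tested, threshold 0.05. Levels are CPM with TMM library sizes. The difference of the drugs came from 1 fit of 12 libraries.

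The 10 genes and the lists were chosen with earlier results of these data known. Every one of the 10 was named. From each other list at most 2 genes per comparison, those of lowest p, were named. ATG4C, RB1CC1 with TN, BNIP3L with OA, TFE3 and TFEB fall outside this rule and were chosen after their values were seen. For ATF4, CEBPB, ATG2A, ULK2, CCPG1 and CTSL, each named by the rule with 1 drug, the value with the other drug is also given. Also named were the 3 genes most alike to each called gene. In the TN experiment, deviations of same-numbered libraries correlated at 0.64, 0.41 and 0.43 (log2 CPM, prior count of 2). Those numbered 2 and 3 correlated about as well across numbers (0.38 and 0.44), and libraries numbered 1 correlated negatively with both (-0.53 to -0.48). These values set the libraries numbered 1 apart and cannot show whether numbers 2 and 3 pair libraries. The reported fits had no replicate term. Alternatives were DESeq2 1.42.0, other scalings and filters, a replicate block, a GC offset per library (transcripts of Gencode 44) and leaving out libraries. The fits without RN7SL1 and without TN experiment libraries numbered 1 were chosen after seeing the data. Precision is limited by 3 libraries a group and by counts of 9884124 to 24983573 per library.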

Additional observations from a re-analysis of the deposited data

How the results depend on the processing

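SQSTM1, MAP1LC3B, GABARAPL1 and WIPI1 kept their direction and their call in all 11 alternatives with OA and all 12 with TN, apart from fits with 1 library left out, and NBR1 did so in all 12 with TN. Log2 changes with OA ranged from 2.56 to 3.43 for SQSTM1, 2.22 to 2.92 for MAP1LC3B, 1.58 to 2.27 for GABARAPL1 and 2.12 to 2.92 for WIPI1. Scaling to total counts moved the median of all genes to -0.23 with OA and -0.18 with TN, and scaling to ACTB to 0.42 and 0.30. Where no cause is named, the cause was not tested. With OA, scaling to total counts gave -0.11 for ATG16L1 and -0.021 for BECN1, and with TN -0.10 for BECN1. ATG5 turned to 0.12 (OA) and 0.26 (TN) under ACTB scaling, to 0.14 and 0.12 with a GC offset, to 0.14 and 0.13 with GC offset and replicate block, and to 0.13 without the TN experiment libraries numbered 1. The number of the 10 genes called higher with OA was 7 with a GC offset and 7 with GC offset and replicate block. Of all genes, 8.51% and 12.9% were called higher in these 2 fits. With TN, 1 of the 10 was called lower with GC offset and replicate block and 1 without the libraries numbered 1. Of all genes, 19% and 22.6% were called lower in those fits, larger shares than 1 of 10.

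The count of other autophagy genes called higher with OA, 2 as reported, was 10 in DESeq2, 9 without a filter, 15 under ACTB scaling, 10 in 1 fit of 12 libraries, 17 with a GC offset and 23 with GC offset and replicate block; the count lower, 0 as reported, was 1, 1, 0, 0, 1 and 2. With TN, 4 and 0 as reported, the counts higher were 11, 11, 15, 8, 23 and 37 in the same settings and 37 without the libraries numbered 1, and the counts lower 1, 1, 0, 0, 1, 2 and 4, with 1 lower under total count scaling. These counts are of 73 to 76 genes. The share of all genes called higher in the same settings was 5.84%, 3.12%, 9.13%, 5.79%, 8.51% and 12.9% with OA and 5.56%, 2.63%, 8.3%, 4.67%, 11.2%, 18.2% and 20.3% with TN. The share called lower was 4.15%, 2.4%, 0.572%, 5.11%, 7.57% and 12.8% with OA. With TN it was 5.56%, 3.22%, 1.52%, 4.06%, 10.5%, 19% and 22.6%, and 6.06% under total count scaling.

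With the replicate block the OA fit called 21 other autophagy genes higher and 3 lower, and 6 of the 10 genes higher. The TN fit with the block called 23 and 3, and 5 of the 10 higher. Of the other autophagy genes 73 were tested in each fit. Of all genes, 11.7% were called higher and 15% lower with OA, and 11.8% and 15.3% with TN. Whether the replicate numbers of the OA experiment pair libraries depends on the scale: same-numbered deviations correlated at 0.62, 0.54 and 0.09 with a prior count of 2, and at 0.71, 0.61 and 0.11 with 0.5 CPM added, against a minimum of 0.1 for each pair. On the first scale, each OA library correlated best with the OActrl library of its own number, whereas OActrl replicate 3 correlated best with OA replicate 1 (0.15). The block changed no other call among the 10 genes with TN, and with OA it added ULK1 (1.304) and NBR1 (0.996).

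With 1 library left out, the number of the 10 genes called higher was 0 to 5 with OA and 3 to 5 with TN, and of the other autophagy genes 0 to 9 and 0 to 17, with 0 and 0 to 2 lower, where 0.02% to 4.69% of all genes were called higher with OA and 0.531% to 7.26% with TN. Of all genes, 0% to 2.88% were called lower in these fits with OA and 0.484% to 8.54% with TN. The log2 change with OA then ranged from -0.65 to 0.021 for ATG5, -0.10 to 0.77 for ATG12 and -0.13 to 0.31 for ATG16L1, and with TN from -0.32 to 0.22 for ATG5 and -0.034 to 0.10 for BECN1. The difference between the drugs ranged from -0.15 to 0.98 for SQSTM1, -0.49 to 0.65 for WIPI1, -0.24 to 0.45 for ULK1, -0.68 to 0.073 for ATG5, -0.52 to 0.42 for ATG12, -0.036 to 0.20 for BECN1 and -0.31 to 0.14 for NBR1. It was 0.0056 for NBR1 without a filter, and -0.13 for ATG12 and -0.017 for BECN1 without the TN experiment libraries numbered 1. ULK1 rests on 39 to 102 counts a library, the fewest of the 10 genes.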
